A study of Rattus norvegicus with 20 samples.

Results

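The genes described here encode 8 receptors or receptor subunits for acetylcholine, chosen by symbol: the muscarinic receptors *Chrm1*, *Chrm2*, *Chrm3* and *Chrm4*, and the nicotinic subunits *Chrna4*, *Chrna5*, *Chrna7* and *Chrnb2*. They are 8 of the 31038 genes in the count table, and all 8 were among the 16605 genes kept for testing, which needed 5 reads or more in 10 rats or more. RNA was sequenced from the medial prefrontal cortex (mPFC) of 20 male Sprague-Dawley rats, with 1 library per rat. The 10 LSD-treated rats received 0.16 mg/kg of LSD by intraperitoneal injection every other day for 90 days, and the 10 controls received sterile saline on the same schedule. Per the labels, all rats were 6 to 8 weeks old and weighed 180 to 200 g at the start, were housed singly, and were killed after 3 weeks without drug, and the mPFC came from 1 hemisphere. The methods of the study give an older age and a longer drug-free interval, the same for both groups. The comparison asks which receptor transcripts differed between the groups weeks after repeated LSD, a serotonergic psychedelic, had been stopped.

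Acetylcholine reaches the prefrontal cortex mainly from basal forebrain neurons and is known for its part in attention and working memory. Muscarinic receptors are coupled to G proteins. M1 and M3, encoded by *Chrm1* and *Chrm3*, act through Gq, phospholipase C and calcium release and close M-type potassium channels, whereas M2 and M4, encoded by *Chrm2* and *Chrm4*, act through Gi, lower cyclic AMP and open inwardly rectifying potassium channels. Nicotinic receptors are pentameric cation channels: the alpha4 and beta2 subunits form the high-affinity receptor of the cortex, the alpha5 subunit joins it as an accessory subunit, in the cortex chiefly in deep-layer pyramidal neurons, and alpha7 forms receptors without other subunits.

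The sequences just upstream of 4 of these genes are shown because the levels of *Chrm1*, *Chrna4* and *Chrnb2* rose and fell together from rat to rat, whereas *Chrna5* followed *Chrm1* and *Chrnb2* weakly unless the part that follows library depth was removed (values given further on). Each is the 250 bases before the annotated start of the gene, 5′ to 3′ on the strand of the gene, from RefSeq on the GRCr8 build. The counts were made on the rn6 build, so the coordinates do not apply to the count table. The windows lie at chr1:214996109-214996358 on the plus strand for *Chrm1*, chr3:188534527-188534776 on the minus strand for *Chrna4*, chr2:177487307-177487556 on the minus strand for *Chrnb2*, and chr8:64265629-64265878 on the plus strand for *Chrna5*. Capitals mark the GC box, GGGCGG on either strand.
Chrm1: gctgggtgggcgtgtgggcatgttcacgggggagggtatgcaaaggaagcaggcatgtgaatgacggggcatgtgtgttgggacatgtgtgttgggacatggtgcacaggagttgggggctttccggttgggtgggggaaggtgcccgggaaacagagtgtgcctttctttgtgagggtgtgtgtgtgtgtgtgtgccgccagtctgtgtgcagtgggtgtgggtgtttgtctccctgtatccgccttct
Chrna4: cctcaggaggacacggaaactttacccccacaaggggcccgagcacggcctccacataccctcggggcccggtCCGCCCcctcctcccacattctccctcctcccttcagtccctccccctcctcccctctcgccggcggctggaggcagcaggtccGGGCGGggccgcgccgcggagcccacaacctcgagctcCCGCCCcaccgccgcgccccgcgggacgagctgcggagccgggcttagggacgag
Chrnb2: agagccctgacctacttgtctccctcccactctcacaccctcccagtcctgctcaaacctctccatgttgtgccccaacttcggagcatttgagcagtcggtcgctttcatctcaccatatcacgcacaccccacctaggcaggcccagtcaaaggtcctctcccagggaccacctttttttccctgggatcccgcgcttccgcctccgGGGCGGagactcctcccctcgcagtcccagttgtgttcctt
Chrna5: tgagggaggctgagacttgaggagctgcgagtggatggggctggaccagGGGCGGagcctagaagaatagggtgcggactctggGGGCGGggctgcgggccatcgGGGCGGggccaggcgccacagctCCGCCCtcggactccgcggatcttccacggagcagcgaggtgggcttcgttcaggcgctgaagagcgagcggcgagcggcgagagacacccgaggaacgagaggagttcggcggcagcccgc
No GC box was found in the window of *Chrm1*, 1 in that of *Chrnb2*, 3 in that of *Chrna4* and 4 in that of *Chrna5*. Among the other members, *Chrm4* had 3, and *Chrm2*, *Chrm3* and *Chrna7* had 1 each. Of 33469 rat promoter windows of the same length, 30.5% held the motif. The E-box CANNTG was found 3 times in the windows of *Chrm1* and *Chrm3*, 2 times in those of *Chrna7* and *Chrnb2*, 1 time in that of *Chrm4* and not in the others, and 65.5% of all windows held it. No member window held TATAAA, which 12.9% of all windows did, or TGACGTCA, which 1.59% did. Both strands were searched, the motifs do not contain one another, and a match describes the letters of the window and no more.

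Reads on genes ranged from 16346629 to 25552681 after LSD (median 20271086), and the controls spanned 11098076 to 24201351 (median 16815424), so the LSD libraries were on the whole deeper. Excitatory neuron markers summed to between 4740 and 7570 RPM per rat (reads per 1e6 reads on genes, TMM-normalised), and no gene of the 10 marker lists was at 0 in every rat. The 8 striatal medium spiny neuron markers summed to 243 to 504 RPM in the LSD-treated rats and 271 to 707 RPM in the controls. In 4 libraries (LSD rat 9 and saline rats 2, 8 and 9) *Adora2a*, a receptor gene of striatal neurons, lay between 28.7 and 44.6 RPM, against 5.34 to 13.7 RPM in the other 16. In bulk tissue, fewer cells of a type and less RNA per cell cannot be told apart.

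None of the 8 receptor genes passed an adjusted p of 0.05 in edgeR's quasi-likelihood test, against 15.0% of all genes tested (6.48% higher and 8.54% lower in the LSD-treated rats). The differences were split by gene: *Chrm2*, *Chrm3*, *Chrna5* and *Chrna7* had higher fitted levels in the LSD-treated rats, and *Chrm1*, *Chrm4*, *Chrna4* and *Chrnb2* lower ones, with log2 fold changes between -0.16 and 0.26. At an unadjusted p under 0.05 there were 2, *Chrm2* and *Chrna7*, where 30.8% of all genes passed. DESeq2 also called 0 of the 8 and had 2 at that unadjusted level. The 8 log2 fold changes had a median of -0.04, beside 0.00 over all genes. The ranges of the 2 groups overlapped for each receptor gene, and over all genes 0.193% did not overlap.

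**Figure D1:**
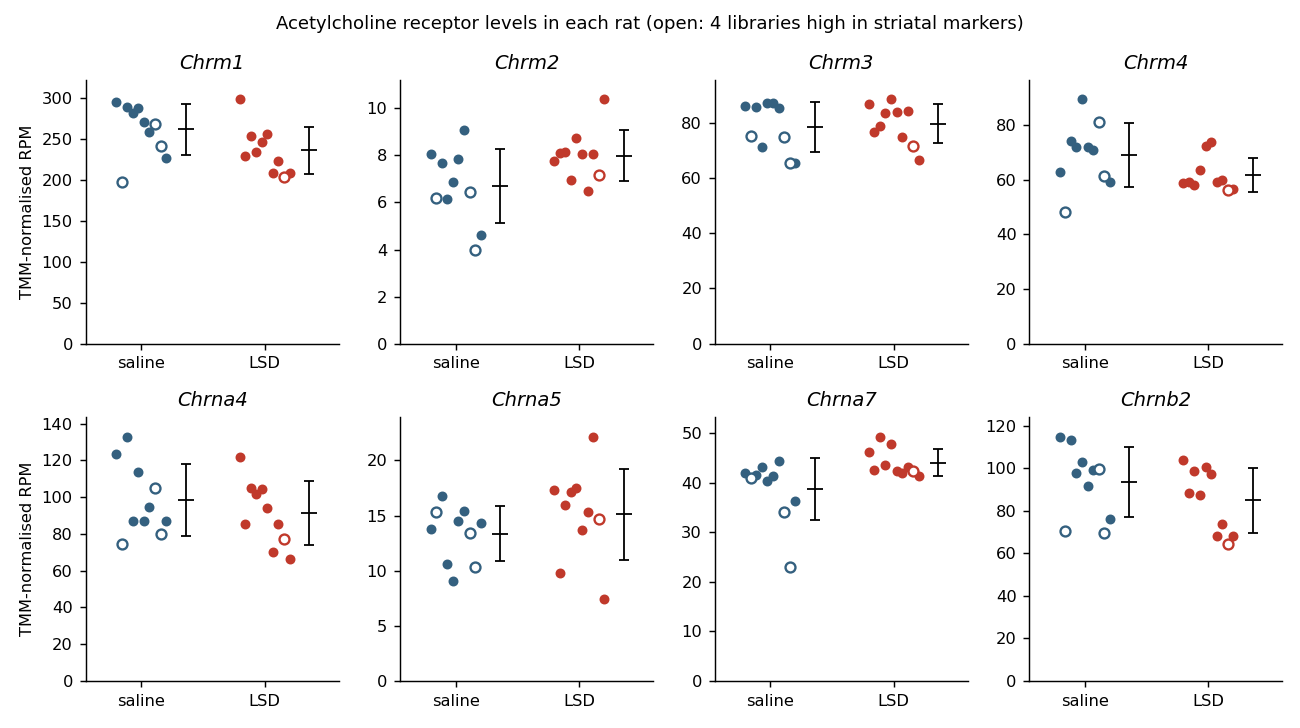
TMM-normalised RPM of each receptor gene in every rat, with saline on the left and LSD on the right of each panel; each point is 1 rat, the bars are the mean ± SD of 10 rats, and open points are the 4 libraries high in striatal markers. The groups overlap in all 8 panels, and all 10 LSD-treated rats lie above the saline median for Chrna7.

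*Chrm1* encodes the main muscarinic receptor of cortical pyramidal neurons. It was measured at 203.5 to 298.6 RPM in the LSD-treated rats (median 232.0) and at 197.9 to 294.8 RPM in the controls (median 269.5). Only LSD rat 1 lay above the saline median, while the lowest value of all came from saline rat 2. The means were 236 ± 28.8 RPM and 262 ± 31.2 RPM (SD, n = 10 each), a log2 fold change of -0.15 (SE 0.075, 95% interval -0.30 to 0.01, edgeR adjusted p = 0.187). Without the 4 libraries high in striatal markers the log2 fold change was -0.19 (edgeR adjusted p = 0.0735).

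*Chrm3*, the other Gq-coupled member, differed least. Its RPM ran from 66.7 to 88.5 in the LSD-treated rats (median 81.2), and the controls ran from 65.6 to 87.3 (median 80.3), and 5 of the 10 LSD-treated rats lay above the saline median. The log2 fold change was 0.02 (SE 0.066, 95% interval -0.11 to 0.16, edgeR adjusted p = 0.856), so a change of more than 0.16 in either direction lay outside the interval. It turned to -0.10 with gene span offsets, a correction described further on (edgeR adjusted p = 0.246).

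*Chrm2* encodes the M2 receptor, known as an autoreceptor on cholinergic terminals and found also on interneurons. It had the fewest reads of the 8 genes, 74 to 263 per rat. Its level was 6.47 to 10.4 RPM in the LSD-treated rats (median 8.06) and 3.98 to 9.07 RPM in the controls (median 6.65). In all, 9 of 10 LSD-treated rats exceeded the saline median, and 5 controls lay below every LSD-treated rat. The log2 fold change was 0.26 (SE 0.12, 95% interval 0.01 to 0.51), with an unadjusted p of 0.0407 and an edgeR adjusted p of 0.142. Saline rat 9, a library high in striatal markers, had the lowest value, and without it the log2 fold change was 0.20 (edgeR adjusted p = 0.225).

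*Chrm4* encodes the M4 receptor, which is abundant in striatal projection neurons. It moved the other way from *Chrm2*, at 56.2 to 73.9 RPM in the LSD-treated rats (median 59.2) and 48.0 to 89.4 RPM in the controls (median 71.4). Of the LSD-treated rats, 8 lay below the saline median, 3 controls lay above every LSD-treated rat, and saline rat 2 lay below them all. The log2 fold change was -0.16 (SE 0.085, 95% interval -0.34 to 0.02, edgeR adjusted p = 0.209). Leaving out saline rat 2 gave -0.21 with an edgeR adjusted p of 0.0459, the only library whose removal brought a receptor gene past the threshold. Saline rat 2 is among the libraries high in striatal markers, and without all 4 of these the value was -0.20 (edgeR adjusted p = 0.0752). *Chrm4* overlaps *Mdk* in the annotation, which had 200 to 541 reads per rat. Since the strand setting of the counting is not given in the sources used here, reads of overlapping genes may not be told apart.

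*Chrna7* had the most even difference of the nicotinic subunits. All 10 LSD-treated rats, at 41.3 to 49.4 RPM (median 42.9), lay above the saline median of 41.2 RPM, and 5 of the 10 controls, which ran from 23.1 to 44.4 RPM, lay below every LSD-treated rat. The means were 44.1 ± 2.72 RPM and 38.8 ± 6.30 RPM (SD, n = 10 each), a log2 fold change of 0.19 (SE 0.082, 95% interval 0.02 to 0.36), with an unadjusted p of 0.0330 and an edgeR adjusted p of 0.124. The lowest control, saline rat 9 at 23.1 RPM, was high in striatal markers. Without it the log2 fold change fell to 0.12 (edgeR adjusted p = 0.112), and without all 4 such libraries to 0.10 (edgeR adjusted p = 0.173). Gene span offsets, described further on, also gave 0.10 (edgeR adjusted p = 0.386).

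The spread of *Chrna7* was also narrower in the LSD-treated rats, with a coefficient of variation of 6.18% against 16.3% in the controls, and that of *Chrm2* was 13.5% against 23.4%. The control value for *Chrna7* rested in large part on saline rat 9 at 23.1 RPM, since the other controls ran from 34.2 to 44.4 RPM. A smaller coefficient of variation in the LSD-treated rats held for 5 of the 8 receptor genes and for 77.5% of all genes, whose medians were 12.4% and 16.3%.

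*Chrna4* and *Chrnb2*, the subunits of the high-affinity receptor, had wide and similar spreads. *Chrna4* was at 66.2 to 121.8 RPM in the LSD-treated rats (median 89.9) and 74.6 to 132.9 RPM in the controls (median 90.9), with 5 LSD-treated rats on each side of the saline median. Its log2 fold change was -0.11 (SE 0.11, 95% interval -0.35 to 0.12, edgeR adjusted p = 0.548). *Chrna4* overlaps *Col20a1* in the annotation, which had 135 to 281 reads per rat against at least 1228 for *Chrna4*.

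*Chrnb2* was at 64.2 to 103.8 RPM in the LSD-treated rats (median 87.8) and 69.4 to 114.8 RPM in the controls (median 98.4). In 7 LSD-treated rats it lay below the saline median, and in 3 below every control. The log2 fold change was -0.14 (SE 0.11, 95% interval -0.36 to 0.09, edgeR adjusted p = 0.415).

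*Chrna5* varied most among the LSD-treated rats, from 7.47 RPM in rat 10 to 22.2 RPM in rat 8 (median 15.6), a coefficient of variation of 27.4%. The controls ran from 9.08 to 16.7 RPM (median 14.1), and 4 LSD-treated rats exceeded them all while 1 lay below them all. The log2 fold change was 0.17 (SE 0.15, 95% interval -0.13 to 0.48, edgeR adjusted p = 0.462).

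LSD rat 10 had the lowest level of its group for 4 of the 8 genes (*Chrm3*, *Chrna4*, *Chrna5* and *Chrna7*) and the highest for *Chrm2*. Among the controls, the lowest value of 6 of the 8 genes came from a library high in striatal markers, namely saline rat 2 for *Chrm1*, *Chrm4* and *Chrna4* and saline rat 9 for *Chrm2*, *Chrna7* and *Chrnb2*. Among the LSD-treated rats this was so for 3 of the 8, in rat 9. Saline rats 2 and 9 were also the deepest control libraries, at 24201351 and 19805283 reads on genes. Saline rat 8, with the highest *Adora2a* (44.6 RPM), lay above the saline median for *Chrm4* (81.1 RPM), *Chrna4* (104.7 RPM) and *Chrnb2* (99.4 RPM). For the other receptor genes it lay below. The part of depth or of striatal tissue in these low values was not tested. Without the 4 libraries edgeR called 20.9% of all genes and 0 of the 8 receptor genes, of which 2 (*Chrm1* and *Chrm4*) had an unadjusted p under 0.05, against 36.0% of all genes in that fit.

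**Figure D2:**
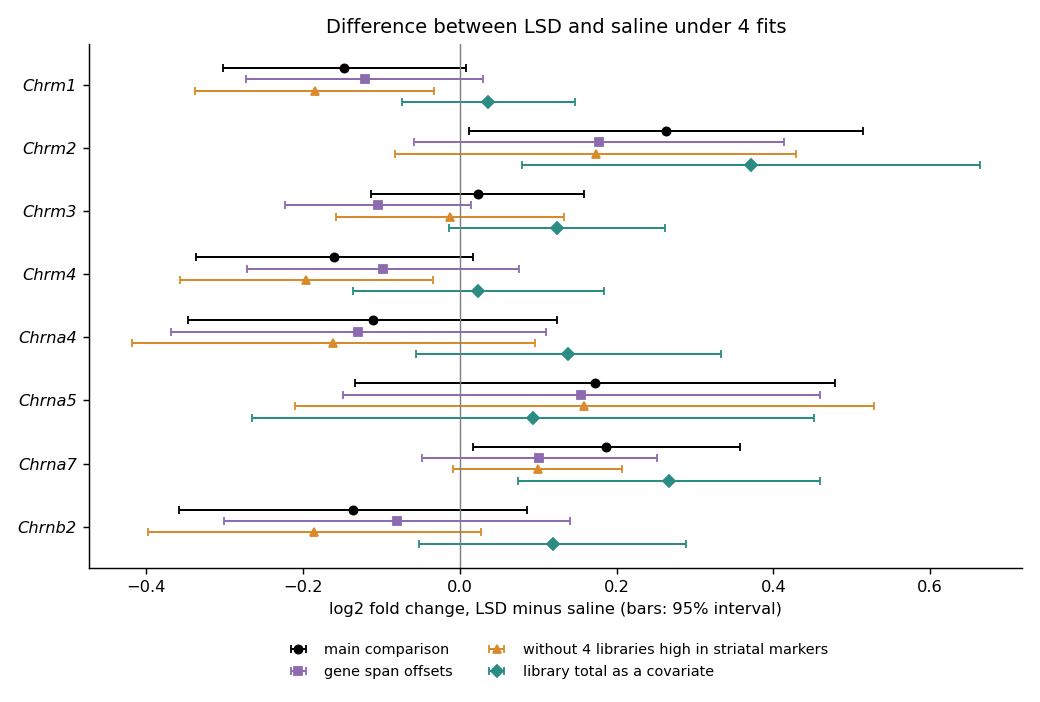
Log2 fold change of each receptor gene, LSD minus saline, with its 95% interval, under the main edgeR fit, with gene span offsets, without the 4 libraries high in striatal markers, and with library total as a covariate. Values right of 0 are higher in the LSD-treated rats; Chrm1, Chrm4, Chrna4 and Chrnb2 cross to the right only under the library total covariate, and Chrm3 crosses to the left with gene span offsets and without the 4 libraries.

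The levels of several receptor genes followed the depth of the library. With each group's mean removed, *Chrm1* in log2(RPM + 1) correlated with the log2 library total at Pearson's r = -0.850 (permutation p = 1e-05, the smallest that 100000 two-sided resamples within groups can give; adjusted over 8 genes, 8e-05) and Spearman's rho = -0.863 (permutation p = 1e-05) over 20 rats. It stayed at -0.857 without the 2 rats of most extreme depth. *Chrnb2* had r = -0.790 (permutation p = 6e-05, adjusted 0.00024; rho = -0.786, permutation p = 0.00014) and r = -0.848 without the 2 rats.

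*Chrna4* had r = -0.732 (permutation p = 0.00029, adjusted 0.000773; rho = -0.762, permutation p = 0.00024), unchanged at -0.732 without the 2 rats. *Chrm4* had r = -0.699 (permutation p = 0.0021, adjusted 0.0042; rho = -0.597, permutation p = 0.00803), which fell to -0.392 without the 2 rats and so rested on them. *Chrm3* had r = -0.560 (permutation p = 0.015, adjusted 0.024; rho = -0.559, permutation p = 0.0137; -0.571 without the 2 rats). For *Chrna7*, *Chrm2* and *Chrna5* r was -0.357, -0.327 and 0.181 (rho -0.433, -0.347 and 0.072), with permutation p-values of 0.200, 0.217 and 0.421 for r (adjusted 0.248, 0.248 and 0.421) and 0.0601, 0.146 and 0.768 for rho. The median of this r over all genes was 0.03, and 6.87% of genes lay below -0.7, as *Chrm1*, *Chrnb2* and *Chrna4* did.

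The summed level of the 5 excitatory neuron markers moved with library total as well, at r = -0.734 (permutation p = 0.00046, adjusted over 10 marker lists 0.0046; rho = -0.749, permutation p = 0.00031; -0.751 without the 2 rats). That of the 5 oligodendrocyte markers had r = 0.635 (permutation p = 0.0051, adjusted 0.0255), which was 0.384 without the 2 rats (rho = 0.471, permutation p = 0.0449, adjusted 0.150). Their part in the receptor values was not tested. When library total entered the edgeR fit as a covariate, a choice made after seeing the data, the 8 log2 fold changes were all above 0: 0.04 for *Chrm1*, 0.02 for *Chrm4*, 0.14 for *Chrna4*, 0.12 for *Chrnb2*, 0.12 for *Chrm3*, 0.09 for *Chrna5*, 0.37 for *Chrm2* and 0.27 for *Chrna7*. None was called (lowest adjusted p 0.0736, *Chrna7*), with 7.06% of all genes called. With reads drawn to equal depth, a planned fit, *Chrm1*, *Chrm4*, *Chrna4* and *Chrnb2* were at -0.16, -0.16, -0.09 and -0.17. None of these was called (edgeR adjusted p from 0.168 to 0.636). Since the LSD libraries were deeper on the whole, treatment and depth are partly confounded, and a lower level of *Chrm1*, *Chrm4*, *Chrna4* and *Chrnb2* after LSD cannot be told apart from their relation to depth.

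**Figure D3:**
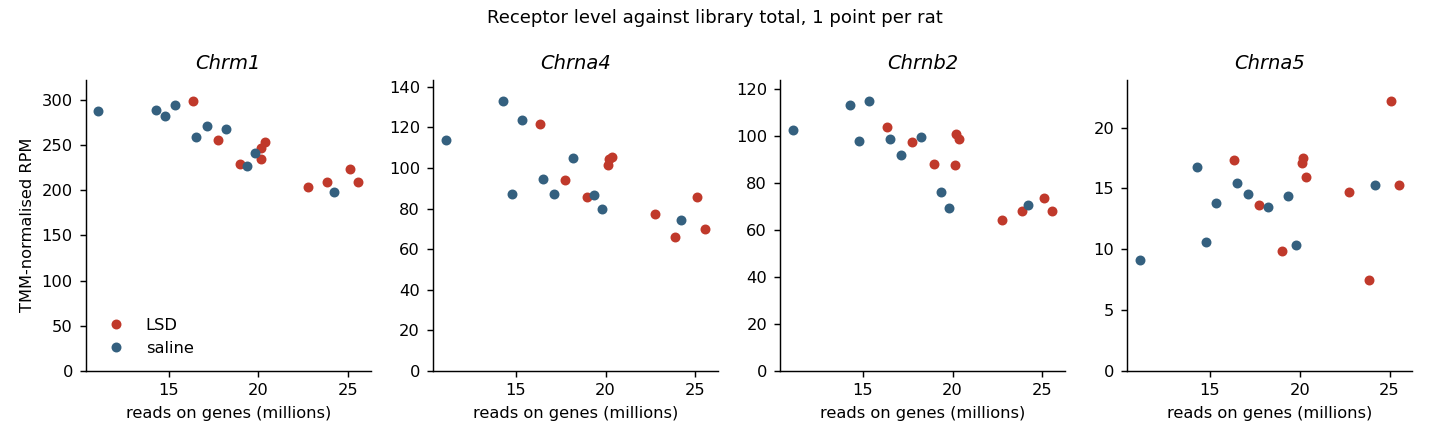
TMM-normalised RPM of Chrm1, Chrna4, Chrnb2 and Chrna5 against the reads on genes of the library (x axis, in units of 1e6 reads), 1 point per rat, LSD in red and saline in blue. The first 3 genes fall as the library total rises in both groups, and Chrna5 has no such slope (r = 0.181 within groups).

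Several receptor genes varied together across rats. Of their 28 pairs, with group means removed, 26 had r above 0 and 14 had a permutation p under 0.05 after adjustment over the 28, with a median r of 0.499, or 0.428 after the part that follows library total was removed from both genes. The subunit genes *Chrna4* and *Chrnb2* had r = 0.889 (permutation p = 1e-05, adjusted 0.00014) and rho = 0.923 (permutation p = 1e-05) over 20 rats, 0.877 without the 2 rats farthest from the median and 0.743 after removal of library total. Of 16604 genes ranked by r, *Chrnb2* was at rank 16 for *Chrna4*, and *Chrna4* at rank 146 for *Chrnb2*. For most pairs of members many other genes ranked higher. Over the 56 ranks, 1 for each member within the list of another, the median was 2055 and the range 16 to 10306.

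*Chrm1* followed both, with r = 0.899 for *Chrnb2* (rho = 0.910, permutation p = 1e-05 for each, adjusted 0.00014 for r; 0.924 without the 2 rats; rank 129 for *Chrm1*) and r = 0.839 for *Chrna4* (permutation p = 2e-05, adjusted 0.000187; rho = 0.866, permutation p = 1e-05; 0.803 without the 2 rats; rank 472). *Chrm2* and *Chrna7*, the genes with an unadjusted p under 0.05, had r = 0.683 (permutation p = 0.00557, adjusted 0.0142; rho = 0.522, permutation p = 0.0272), which was 0.395 without the 2 rats and so depended on them. *Chrna5* had r = 0.366 with *Chrna4*, the subunit it accompanies (permutation p = 0.123, adjusted 0.182; rho = 0.395, permutation p = 0.0906; 0.261 without the 2 rats), but 0.744 after removal of library total, a description with no test. Its r with *Chrm1* was 0.095 (permutation p = 0.690, adjusted 0.731; rho = 0.146, permutation p = 0.541; 0.137 without the 2 rats), and 0.481 after removal of library total. With *Chrnb2* it was 0.189 (permutation p = 0.446, adjusted 0.521; rho = 0.286, permutation p = 0.231; 0.067 without the 2 rats), and 0.550 after that removal.

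The 2 genes most alike to each member were taken from the same 20 rats by the highest r among 16604 genes, as a description. They were *Pianp* and *Scap* for *Chrm1* (0.959 and 0.957), *Zfp655* and *Rcbtb1* for *Chrm2* (0.818 and 0.812), *Far2* and *LOC100910088* for *Chrm3* (0.901 and 0.867), and *Slc25a25* and *Ier5l* for *Chrm4* (0.891 and 0.853). For the nicotinic subunits they were *Sulf2* and *Atxn2* for *Chrna4* (0.928 and 0.920), *Ncoa7* and *Foxp2* for *Chrna5* (0.842 and 0.824), *Klhl11* and *Gpd1l* for *Chrna7* (0.864 and 0.856), and *Pom121* and *B3gat1* for *Chrnb2* (0.957 and 0.957). *Foxp2*, beside *Chrna5*, is 1 of 6 deep-layer cortical markers in the lists used here, and the relation of the others to *Chrna5* was not examined. The sum of the 6 had r = -0.536 with library total (permutation p = 0.0256, adjusted 0.0855). For *Foxp2* and *Chrna5* that r was 0.138 and 0.181. *Pianp*, *Scap*, *Pom121* and *B3gat1* themselves correlated with library total at r between -0.80 and -0.854.

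Ratios of reads between receptor genes in the same rat do not depend on library scaling, and are given as descriptions with no test. They can still follow depth, since the receptor genes differ in their relation to it: the fitted log2 fold changes with library total as a covariate were 0.27 for *Chrna7* and 0.14 for *Chrna4*, and 0.12 for *Chrm3* and 0.04 for *Chrm1*, closer together than without it, while *Chrm2* (0.37) and *Chrm4* (0.02) stayed apart. The log2 ratio of *Chrm2* to *Chrm4*, both Gi-coupled, was -2.95 ± 0.23 in the LSD-treated rats and -3.39 ± 0.36 in the controls (SD, n = 10 each), and all 10 LSD-treated rats lay above the saline median. This difference of 0.43 was larger than the pooled SD of 0.30. The values of the groups still overlapped, since the LSD-treated rats ran from -3.20 to -2.44 and the controls from -3.94 to -2.96.

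The log2 ratio of *Chrm3* to *Chrm1*, both Gq-coupled, was -1.57 ± 0.12 after LSD and -1.74 ± 0.17 in the controls, with 9 of 10 LSD-treated rats above the saline median and a pooled SD of 0.14. That of *Chrna7* to *Chrna4* was -1.03 ± 0.22 and -1.34 ± 0.32, a difference of 0.32 with 9 of 10 above. *Chrna5* to *Chrna4* differed by 0.26, less than its pooled SD of 0.38. The ratio of the partner subunits *Chrna4* and *Chrnb2* was even between groups, 0.10 ± 0.12 against 0.07 ± 0.13. The summed Gq-coupled receptors (*Chrm1* and *Chrm3*) relative to the summed Gi-coupled ones (*Chrm2* and *Chrm4*) stood at 2.18 in both groups (SD 0.15 and 0.14), a difference of 0.00, although 8 of the 10 LSD-treated rats lay below the saline median and LSD rat 1, at 2.54, was the highest of all.

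**Figure D4:**
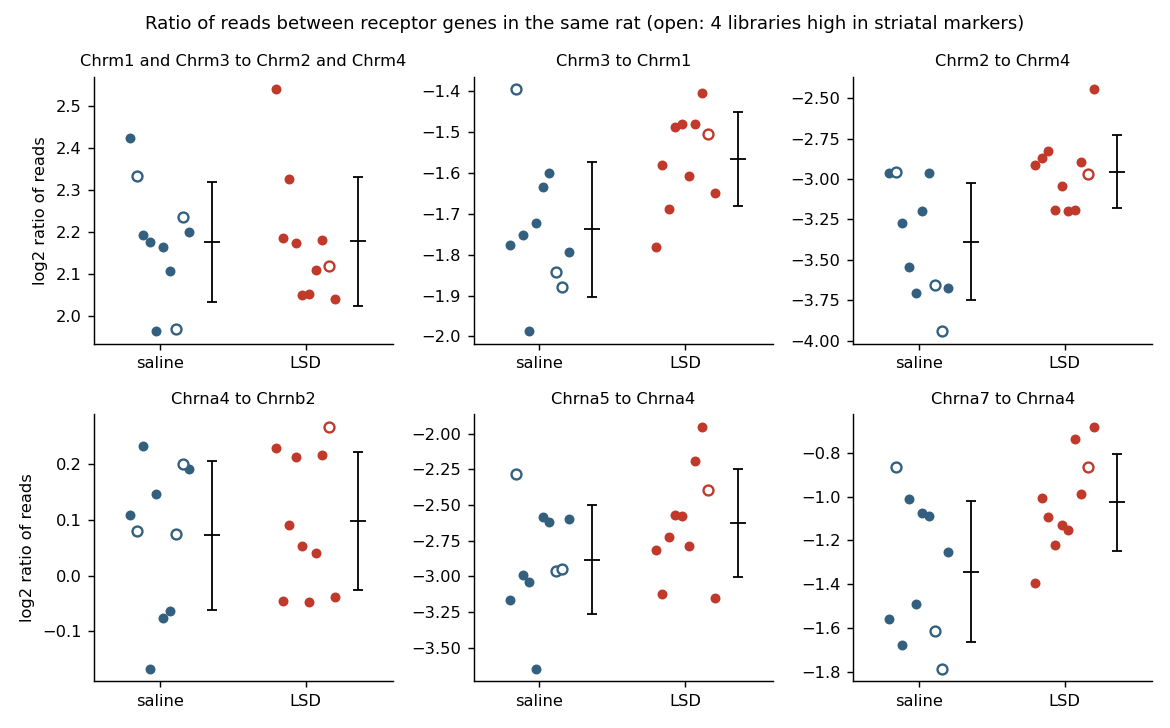
Log2 ratio of reads between receptor genes in the same rat, 1 point per rat, with saline left and LSD right; bars are the mean ± SD of 10 rats and open points are the 4 libraries high in striatal markers. The Chrm2 to Chrm4 ratio differs most (0.43), and LSD rat 10 at -2.44 stands above the other LSD-treated rats.

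The other genes of the cholinergic pathway were taken as 5 lists of 57 genes in all, of which 52 passed the filter. In edgeR 9 of the 52 rose, 7 fell and 36 did not pass the test, where over all genes 6.48% rose and 8.54% fell, and the median of their log2 fold changes was -0.02. Of the 13 other receptor genes, 8 were tested and none was called (none at an unadjusted p under 0.05), with a median of -0.09. DESeq2 gave an adjusted p for only 3 of these 8 and called none of the 3. *Chrna2*, an interneuron subunit, was at 3.50 ± 0.51 RPM after LSD and 3.86 ± 0.85 RPM in the controls (SD, n = 10 each), with an edgeR adjusted p of 0.498. *Chrnb3* was at 1.69 ± 0.90 and 1.70 ± 1.53 RPM (edgeR adjusted p = 0.978), with the highest value, 5.53 RPM, in saline rat 10. *Chrna6*, *Chrna9*, *Chrna10* and *Chrng* had at most 4 reads in any rat, and *Chrnd*, a muscle subunit, had 0 reads among 381775061, which allows up to 0.00786 RPM over all rats, counting error only.

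The genes that make, carry and break down acetylcholine had log2 fold changes with a median of -0.20, and 2 of 9 fell. *Ache*, the enzyme that hydrolyses acetylcholine in the synapse, was at 35.1 to 49.8 RPM in the LSD-treated rats (median 42.4) and 41.3 to 71.7 RPM in the controls (median 53.2), and all 10 LSD-treated rats lay below the saline median. Its log2 fold change was -0.33 (SE 0.089, edgeR adjusted p = 0.0182). It was called without the 4 libraries high in striatal markers too (-0.35, edgeR adjusted p = 0.0203), but not with library total as a covariate (-0.20, edgeR adjusted p = 0.183). *Ache* overlaps *Ufsp1*, which had 139 to 367 reads per rat against 578 to 1184 for *Ache*.

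*Slc18a3*, the vesicular acetylcholine transporter, ran from 1.22 to 2.04 RPM in the LSD-treated rats (median 1.69), while the controls spanned 1.40 to 3.42 RPM (median 2.32), again with all 10 LSD-treated rats below the saline median. The log2 fold change of -0.51 (SE 0.15, edgeR adjusted p = 0.0269) rested on 23 to 71 reads per rat. The call was lost with gene span offsets (-0.43, edgeR adjusted p = 0.0637) and with library total as a covariate (-0.57, edgeR adjusted p = 0.0502). Without the 4 libraries it was -0.30 (edgeR adjusted p = 0.143), and the highest control was one of them, saline rat 9. *Slc18a3* lies within *Chat*, the synthesising enzyme, so their reads may not be told apart. *Chat*, looked up after its values were seen, was at 1.15 ± 0.32 and 1.57 ± 0.73 RPM (SD, n = 10 each; edgeR adjusted p = 0.160). The 7 cholinergic neuron markers summed to 3.56 to 7.89 RPM in the LSD-treated rats and 4.73 to 13.2 RPM in the controls, and *Slc18a3* was the only marker called of the 4 tested. The choline transporters *Slc44a1* and *Slc44a2* did not pass the test (log2 fold changes of -0.08 and 0.01).

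Among 9 chaperones and Ly6 modulators of nicotinic receptors, 3 fell, with a list median of -0.17. All 3 belong to the Ly6 family, whose members bind nicotinic receptors at the membrane or during assembly. *Ly6h* was at 234.6 to 329.5 RPM after LSD (median 251.2) and 257.8 to 427.1 RPM in the controls (median 335.4), with a log2 fold change of -0.38 (SE 0.089, edgeR adjusted p = 0.00917) and all 10 LSD-treated rats below the saline median. *Lynx1*, which restrains nicotinic signalling in the adult cortex, fell by 0.26 (edgeR adjusted p = 0.0266), with 9 of 10 below. *Ly6e* fell by 0.20 (edgeR adjusted p = 0.0408), with 8 of 10 below. With gene span offsets *Ly6h* was still called (edgeR adjusted p = 0.0210), and *Lynx1* and *Ly6e* were not (edgeR adjusted p = 0.105 and 0.187). With library total as a covariate *Ly6h*, *Lynx1* and *Ly6e* stood at -0.22, -0.17 and -0.17 and were not called (edgeR adjusted p = 0.0950, 0.193 and 0.143). Without the 4 libraries high in striatal markers *Ly6h* (-0.39, edgeR adjusted p = 0.0083) and *Lynx1* (-0.26, edgeR adjusted p = 0.0442) were called. In that fit *Ly6e* was not (-0.16, edgeR adjusted p = 0.0822). The assembly chaperones *Ric3* (log2 fold change 0.04) and *Tmem35*, the older symbol of *Tmem35a* or NACHO (-0.08), did not pass the test, and *Ric3* overlaps *Tub*.

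In the Gq pathway of M1 and M3, 7 of 13 genes rose and none fell, with a list median of 0.22. *Kcnq3*, a subunit of the M-type potassium channel, had the largest difference: 54.6 to 80.1 RPM after LSD (median 70.7) against 26.8 to 58.6 RPM (median 51.0), all 10 LSD-treated rats above the saline median, log2 fold change 0.53 (SE 0.11, edgeR adjusted p = 0.00623). *Plcb1*, the main phospholipase C of this pathway in the forebrain, was at 151.9 to 200.1 RPM against 96.4 to 157.7 RPM, a log2 fold change of 0.35 (SE 0.077, edgeR adjusted p = 0.00807). The protein kinase C genes *Prkcb* and *Prkca* rose by 0.30 and 0.24, the calcium release channel *Itpr1* by 0.27, and *Plcb4* and the M-channel subunit *Kcnq5* by 0.22 each (edgeR adjusted p between 0.0134 and 0.0298).

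Across all genes the log2 fold change rose with genomic span, the distance from the start to the end of a gene (Spearman's rho = 0.36 across genes, which are not independent replicates). When each rat's trend with span was removed by offsets, rho was 0.05, 10.2% of all genes were called, and 2 of the 13 Gq genes remained called, *Kcnq3* (0.42, edgeR adjusted p = 0.00893) and *Plcb1* (0.23, edgeR adjusted p = 0.0182). Both were also called without the 4 libraries high in striatal markers and with library total as a covariate. In those fits 5 and 6 of the 13 Gq genes were called, against 20.9% and 7.06% of all genes.

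In the Gi pathway of M2 and M4, 2 of 13 genes rose and 2 fell, with a median of -0.01. *Gnai2*, a Gi alpha subunit, was at 388.4 to 466.4 RPM after LSD and 445.3 to 573.9 RPM in the controls, with all 10 LSD-treated rats below the saline median (log2 fold change -0.24, SE 0.053, edgeR adjusted p = 0.00755). *Gnai1*, its paralogue, rose by 0.19 (edgeR adjusted p = 0.0335), and so did the inwardly rectifying channel *Kcnj3*, by 0.25 (edgeR adjusted p = 0.0323). With gene span offsets *Gnai2* was still called (-0.23, edgeR adjusted p = 0.0117), while *Gnai1* (0.11, edgeR adjusted p = 0.174) and *Kcnj3* (0.16, edgeR adjusted p = 0.101) were not. *Adcy5*, the main adenylyl cyclase of the striatum, fell by 0.29 (edgeR adjusted p = 0.0358), with its highest value, 545.8 RPM, in saline rat 8, and was at -0.25 without the 4 libraries (edgeR adjusted p = 0.0296). With library total as a covariate none of these was called except *Kcnj3* (edgeR adjusted p = 0.0294), with *Gnai2* at -0.15 (edgeR adjusted p = 0.0573). *Adcy1* (0.18) and *Gnao1* (-0.12) did not pass the test.

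**Figure D5:**
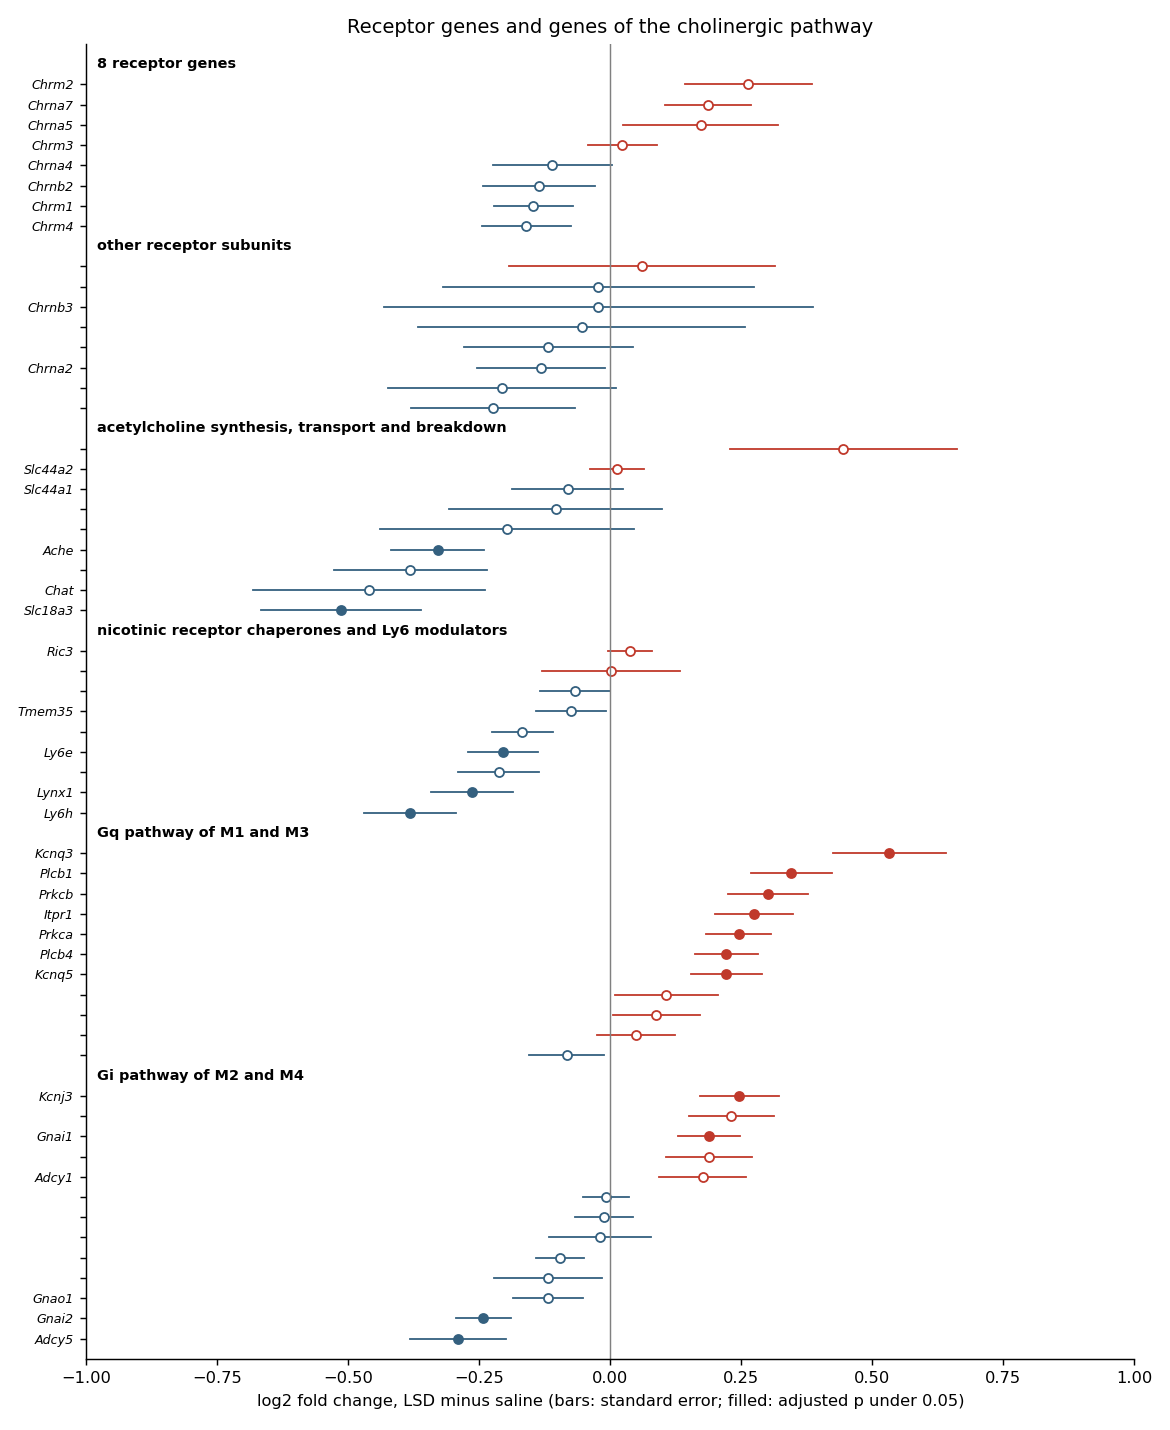
Log2 fold change, LSD minus saline, of the 8 receptor genes and 50 of the 52 tested genes of the 5 cholinergic pathway lists, with standard error bars; filled points passed an edgeR adjusted p of 0.05, and symbols are given for genes named in the text. Called genes sit on the right in the Gq list (7 of 13), on the left in the acetylcholine (2 of 9) and Ly6 (3 of 9) lists, on both sides in the Gi list, and nowhere among the receptor genes.

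All 8 striatal markers had log2 fold changes below 0, with a median of -0.71, or -0.23 without the 4 libraries high in them, and 7 of the 8 had an unadjusted p under 0.05. *Gpr6* was the only one called (log2 fold change -1.24). With 1 surrogate variable, with the replicate block or with library total as a covariate, 6 of the 8 were called. Of all 16605 genes, 1 surrogate variable gave 1319 higher and 1535 lower and the replicate block 1355 and 1606. The covariate called 7.06% of them. Leaving out the 4 libraries gave 3 of the 8 with an unadjusted p under 0.05. In that fit 2 of the 8 were called, as were 20.9% of all genes. The 2 were *Adora2a* (-0.50, edgeR adjusted p = 0.0181), the gene used to set the libraries apart, and *Gpr6* (-0.70, edgeR adjusted p = 0.02). *Adcy5*, which fell, and *Chrm4*, which did not pass the test, are also known from striatal neurons, and the part of striatal tissue in their values was not tested. Other markers called were the interneuron genes *Gad2* (0.23), *Vip* (0.27) and *Sst* (-0.28), and *Hbb* of blood (-0.50), with edgeR adjusted p between 0.0222 and 0.0486. Of these, only *Vip* was called with gene span offsets (edgeR adjusted p = 0.0287) and only *Sst* with library total as a covariate (edgeR adjusted p = 0.0405). Without the 4 libraries all but *Sst* were called (edgeR adjusted p = 0.096 for *Sst*). Interneuron subtypes are known carriers of *Chrm2* and nicotinic subunits, and the 7 interneuron markers summed to 675 to 770 RPM in the LSD-treated rats and 661 to 827 RPM in the controls. Of the 5 oligodendrocyte markers none was called (2 at an unadjusted p under 0.05, 1 called by DESeq2), with sums of 1980 to 5330 RPM and 1940 to 6940 RPM. The part of cell composition in the receptor values was not tested. Levels are not compared between receptor genes, since transcript lengths were not used here.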

How the data were processed

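Per the methods of the study, the deposited counts per gene came from HTSeq-count after trimming by TrimGalore and alignment by Hisat2 to the rn6 build, and the authors left them unnormalised; versions, annotation and strand setting are not given in the sources used here. The table held 31038 symbols (5839 without a read; 27 shaped like dates) and 5 unnamed entries, 25.46% to 28.96% of each column, which were left out. Groups followed the sample labels; no pair of libraries was identical. Whether the rats shared litters or processing days is not stated, so p-values measure the spread between these rats.

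The 16605 genes reaching 5 reads in 10 or more rats were tested with edgeR 4.0.16 in R 4.3.3 (TMM, quasi-likelihood F test, Benjamini-Hochberg over all genes, threshold 0.05), checked on simulated data. There, 26.7% of genes given a log2 change of 0.3 in size were called, 58.6% at 0.5 and 95.5% at 1. Most changes of 0.3 were thus missed in the simulation. It changed 60, 70 and 67 genes at these sizes among 16499, whereas 2494 genes were called in the real data. With fewer changed genes the adjustment is stricter, so these shares need not hold for the receptor genes. RPM values are TMM-normalised; depth is the reads on genes, 11098076 to 25552681 per rat, and correlations used log2(RPM + 1). The alternatives comprised DESeq2 1.42.0, its size factors in edgeR, total counts, no filter and filterByExpr, the replicate block, gene span offsets (GRCr8 spans for 90% of tested genes, 50 bins), reads drawn to 11098076, 1 surrogate variable (sva 3.50.0) and each rat left out. Leaving out libraries with *Adora2a* over 2 times the median and the library total covariate were added after seeing the data.

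Named were all members, every called pathway gene plus the 2 most abundant uncalled ones per list, called markers, and the 2 genes most alike to each member, except 2 uncalled pathway genes that are not reported here. Members and lists were chosen with earlier results of these data known.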

Additional observations from a re-analysis of the deposited data

Results flagged for a closer look

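In 28 groups of 10 rats (levels of the 8 genes and 6 ratios in both treatments), the highest or lowest rat was set against the others by Dixon's test, and 2 stood apart; chance gives about 1 in 20 groups. *Chrna7* in the controls had a low rat, saline rat 9 at 23.1 RPM, whose gap to the next value was 0.518 of the range of the group, past the test's 95% limit. The log2 ratio of *Chrm2* to *Chrm4* in the LSD-treated rats had a high rat, rat 10 at -2.44, with a gap of 0.513 of the range.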

How the results depend on the processing

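Over 32 alternatives each, *Chrm2* kept its direction and stayed uncalled (log2 fold change 0.17 to 0.37, adjusted p 0.0596 to 0.336), as did *Chrna5* (0.09 to 0.26, adjusted p 0.173 to 0.772). With 1 surrogate variable *Chrm1* (-0.042) and *Chrm4* (-0.061) shrank, *Chrna7* was called (0.24, edgeR adjusted p = 0.0377), and *Chrna4* (0.039) and *Chrnb2* (0.017) turned. The library total covariate turned *Chrm1* (0.036), *Chrm4* (0.024), *Chrna4* (0.14) and *Chrnb2* (0.12). *Chrm3* turned with gene span offsets (-0.10), with these and the replicate block (-0.10), at equal depth (-0.010) and without the 4 libraries high in striatal markers (-0.012). Without 1 rat each, *Chrm3* ranged from -0.0036 (saline rat 10; -0.0035 for saline rat 9) to 0.052, and *Chrm4* from -0.21, called without saline rat 2, to -0.11. Leaving out 1 rat changed no other receptor call or direction, but brought *Chrna4* to -0.054 (saline rat 3), *Chrna5* to 0.093 (LSD rat 8) and *Chrna7* to 0.12 (saline rat 9). Gene span offsets shrank *Chrm4* (-0.098), *Chrna7* (0.10) and *Chrnb2* (-0.081), and leaving out the 4 libraries shrank *Chrm2* to 0.17.

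Over all genes 1076 were higher and 1418 lower (56.9% of calls lower). Scaling by total counts, which moved the median of all genes to 0.05, gave 1504 and 858 (36.3%), no filter 960 and 836 (46.5%), gene span offsets 560 and 1129 (66.8%), the library total covariate 534 and 639, and leaving out the 4 libraries 1701 and 1689. Leaving out 1 rat gave 663 (LSD rat 8) to 1669 (saline rat 2) higher and 957 to 1907 lower, and 705 higher without saline rat 4. Of the other cholinergic genes, 2 were higher with span offsets, 3 with these and the block, and 6 to 10 without 1 rat; 3 were lower without a filter, 2 with the library total covariate, and 4 (without saline rat 3) to 8 without 1 rat.

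Among uncalled pathway genes, *Chrnb3* turned with total counts (0.018), the replicate block (0.13), both span and block (0.085) and equal depth (0.021), and ranged from -0.15 to 0.42 without 1 rat. With span offsets, without and with the block, *Ric3* was at -0.022 and -0.022 and *Slc44a2* at -0.026 and -0.025 (-0.0033 to 0.042 without 1 rat). *Gnao1* was 0.017 with the library covariate, and *Slc44a1* (0.059) and *Tmem35* (0.0088) turned without the 4 libraries. Of the called pathway genes, *Ly6e* kept its call in 7 of the 20 fits without 1 rat, *Gnai1* in 11, *Adcy5* in 12, *Kcnq5* in 14, *Kcnj3* in 15, *Lynx1* in 18 and *Slc18a3* in 19, and the others in all 20. The cause was not tested for any of these.

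Same-numbered rats of the 2 groups deviated together only in part (r from -0.259 to 0.467, over 0.1 in 6 of 10 pairs, and 3 of 20 rats correlated best with their own number), so the numbers were not taken to pair them. The mean r was 0.145 for same-numbered rats and -0.0157 for rats of different numbers. The replicate block gave 1355 higher and 1606 lower genes and called 0 of the 8 receptor genes (lowest adjusted p 0.0668). With it 4 of the 8 had an unadjusted p under 0.05 (*Chrm1*, *Chrm2*, *Chrm4* and *Chrna7*), as did 33.1% of all genes. The main fit had 2. At 74 to 263 reads per rat *Chrm2* had the widest counting error of the 8 genes.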
